A study of Mus musculus with 614 samples.

Results

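The common monocyte progenitor (cMoP) gate held 66 of the 614 single cells of the series, which were sorted into 12 gates, and its cells were taken by the sort label alone, so that no measured value chose them. Each cell was captured on a C1 microfluidic chip, reverse transcribed with oligo(dT) primers, amplified and made into its own Nextera XT library. The 3 gates set beside cMoP were 51 granulocyte-monocyte progenitors (GMP), 68 SiglecH-Ly6C+ dendritic cell precursors (pre-DC) and 58 CD115- common dendritic cell progenitors (CDP). All cells of these 4 gates came from the bone marrow of untreated adult C57BL/6J mice aged 7 to 10 weeks, after red cell lysis and magnetic enrichment of progenitors. The sort phenotypes in the labels were Lin-CD11b- CD115+Ly6ChiFlt3-c-Kit+ for cMoP, Lin-c-Kit+CD16/32hiCD34+Sca-1- for GMP, Lin-CD11c+MHCII-Flt3+ together with CD172α-B220-SiglecH-Ly6C+ for the pre-DC and Lin-CD11c-MHCII-Flt3+c-KitintCD115-IL7R- for CDP. The GMP label names no limit on CD115, Ly6C or Flt3. No label names an animal or a pool, so that 1 gate counted as 1 sample, every SD is over cells, and no gate difference has a replicate check or a p-value.

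Monocyte progenitors lie between the bipotent granulocyte-monocyte progenitor and the circulating monocyte, and they divide actively. They make messenger RNA for the primary granule proteins, a set of antimicrobial enzymes that early neutrophil precursors also make, together with genes of the monocyte line such as the receptor for colony-stimulating factor 1. The transcription factors IRF8 and KLF4 are known to be required for monocyte formation, while members of the C/EBP family and GFI1 favour granulocytes.

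Values are TPM, a gene's share of a cell's transcripts after division by transcript length, scaled to the same total in every cell. A level is the mean over cells of log2(TPM + 1), and a gate difference is cMoP minus the other gate on that scale, which understates differences of low genes. The read depth is unknown from TPM, and genes at 1 TPM or more per cell stand in for it. The cMoP cells had 4478 to 9977 such genes, with a median of 6671, against medians of 5792 in GMP, 4221.5 in the pre-DC and 5208 in CDP. The library numbers in the labels formed a run for cMoP that no other gate shared. GMP shared its run with common lymphoid progenitors (CLP) and pre-pro-B cells, so that the gate and the library run cannot be told apart in any comparison below.

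Of the 66 libraries, 6 stood apart, and all 6 lay within 1 stretch of 8 consecutive library numbers. The labels mark them as single cMoP cells like the rest, and they are counted as such in every value over 66 cells, but whether each held 1 cell of this gate was not tested. They held 8722 to 9977 genes per cell, above the highest of the other 60 cells, 7567. H2-Aa, a chain of major histocompatibility complex (MHC) class II, which presents antigen on dendritic cells, B cells and macrophages, was at 3804 to 11089 TPM in the 6 and at no more than 162.02 TPM in the other 60. In these 6 libraries 31 genes lay above every other cMoP cell, a count that was 0 for each of the other 11 stretches of 8 library numbers. The 31 included H2-Aa, Cd74, its invariant chain (3424 to 7890 TPM against at most 106), and Cd83, a maturation marker of dendritic cells (88.9 to 624 TPM against at most 2.49). The 6 were also unusually alike. Over 760 well-expressed genes the median SD was 0.48 within the 6 and 2.08 within the 60, and the median Spearman correlation between 2 cells over 10182 genes was 0.643 within the 6, 0.431 within the 60 and 0.486 between them. Xist, transcribed from an inactive X chromosome, reached 1 TPM in 6 of the 6 and in 2 of the 60, and a Y-linked gene did so in 6 of the 6 and 58 of the 60. Median Mpo was 9557 TPM in the 6 against 9536 TPM in all 66. The part of these libraries in the results was measured by giving the main values for 66 and for 60 cells.

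**Figure D1:**
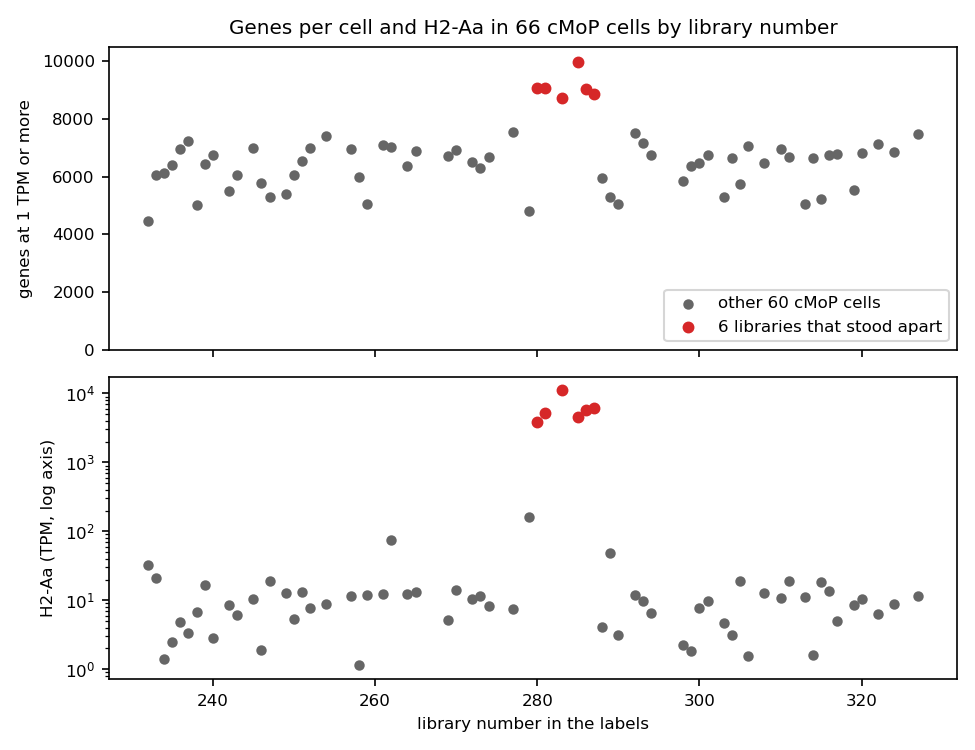
Genes at 1 TPM or more per cell (top) and H2-Aa in TPM on a log axis (bottom) against the library number for the 66 cMoP cells. The 6 libraries that stood apart (red) lie at 8722 genes or more and at 3804 TPM of H2-Aa or more, while the other 60 cells (grey) reach 7567 genes and 162.02 TPM.

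A further 10 cells, all among the 60, gave more than 20% of their TPM to mitochondrial genes. The range over the gate was 0.777% to 47.7% with a median of 7.08%, and no cell of the 3 other gates passed 20%. The median over cells of Eef1a1, a translation factor present in all cells, was 2705 TPM in them and 9983 TPM in the other 56. Malat1, a nuclear long non-coding RNA, had medians of 18496 TPM in the 10 and 4247 TPM in the 56.

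The gate carried the markers its name implies. Of 7 genes taken to mark it, Mpo, Elane, Ly6c2 and Irf8 reached 1 TPM in all 66 cells, Csf1r in 56 (84.8%), Klf4 in 50 and Fcnb in 34. Only Klf4 and Fcnb among the 7 were higher than in GMP by 2 or more on the log2 scale. Csf1r and Ly6c2 encode the proteins CD115 and Ly6C used for the sort, and so check the labels only. Kit, whose protein was sorted as present, was detected in 39 cells with a median of 2.79 TPM. Itgam and Flt3, whose proteins were sorted as absent, were detected in 47 cells (median 1.49 TPM, highest 119) and in 20 cells (median 0.39 TPM, highest 184). The transcripts of the sort proteins therefore matched the label for Csf1r and Ly6c2, and were near the detection limit in most cells for the other 3.

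**Figure D2:**
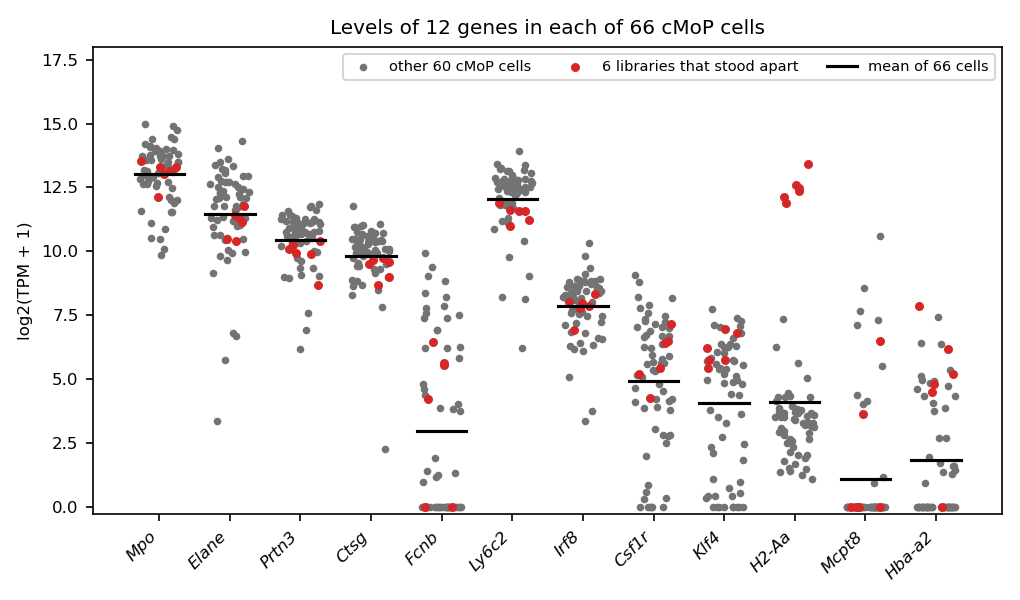
Levels of 12 genes, as log2(TPM + 1), in each of the 66 cMoP cells (points), with the 6 libraries that stood apart in red and a black line at the mean. Mpo spans 916.8 to 32081 TPM with every cell positive, Fcnb is at 1 TPM or more in 34 cells, and H2-Aa separates the 6 libraries from the rest.

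Mpo, myeloperoxidase, the haem enzyme of primary granules that makes hypochlorous acid, was the highest named gene of the gate. It spanned 916.8 to 32081 TPM with a median of 9536 (level 13.04 ± 1.13, SD, n = 66 cells). Elane, neutrophil elastase, spanned 9.34 to 20484 TPM with a median of 3525 (level 11.46 ± 1.89, SD, n = 66 cells). Every cell thus held both transcripts, and 64 of 66 held Elane at 100 TPM or more. Prtn3, proteinase 3, spanned 70.5 to 3743 TPM with a median of 1637. Ctsg, cathepsin G, the other serine protease of these granules, spanned 3.85 to 3503 TPM with a median of 1038.2. Both proteases were at 100 TPM or more in 65 of 66 cells, with SDs of 1.07 and 1.21, below the median SD of 2.42 over 1323 well-expressed genes.

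The SDs of the other 8 primary granule genes ran from 1.33 for Plac8 to 3.60 for Nkg7. Plac8, a small cysteine-rich protein of myeloid progenitors, spanned 65.5 to 6123 TPM (median 3045). Srgn, the proteoglycan that packs granule proteases, had a median of 607 TPM and Mgst1, a membrane glutathione transferase, one of 365 TPM. Ms4a3, a membrane protein of granulocyte-monocyte progenitors, spanned 1.18 to 3221 TPM (median 549). Nkg7, a granule membrane protein better known from cytotoxic lymphocytes, was below 1 TPM in 12 of the 66 cells and reached 2803 TPM (median 109). Fcnb, ficolin B, a lectin of the complement pathway, was the member detected in the fewest cells, 34. It was listed from 0 to 970.8 TPM with a median of 1.3, and 14 cells held 100 TPM or more, none of them among the 6 libraries that stood apart.

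The upstream sequences of the 4 genes below are printed because they hold the motif shown, and were chosen by that match among the granule and monocyte lists. Another motif was also searched and is given after it. Over cells Elane had Spearman correlations of 0.64 with Mpo, 0.53 with Prtn3 and 0.56 with Ly6c2 (n = 66 cells, which share 1 library run). Gstm1, Nkg7 and Ms4a3, given further on and without a window shown, had higher ones than each of these. Prtn3 and Ly6c2 also lay below Gpi1 (0.63), Arhgdib (0.62), Srgn (0.62), Rac2 and Dbnl. The 8 letters GAGGAAGT, a form of the motif of the myeloid factor PU.1, were searched on both strands (reverse ACTTCCTC) in the 250 bases before each RefSeq start on GRCm38.p6. They occurred in 2.44% of 32851 such windows, and in 2.79% of the 27025 gene symbols with a window. By symbol they were in 3 of the 11 primary granule genes with a window (Elane, Mpo and Prtn3) and in 1 of the 14 monocyte genes (Ly6c2). Nkg7, Ms4a3, Srgn and Ctsg, with correlations with Elane of 0.66, 0.65, 0.62 and 0.51, were not among the matches. Not every gene of the granule list had a window. They also occurred in 3 of the 14 neutrophil genes with a window (Ly6g, Mmp8 and S100a8). Other lists with a match were platelet (1 of 6), macrophage (1 of 7), interferon response (1 of 11) and phagocyte (1 of 15). The other motif searched, TTTCGCGC of the E2F type, was in 0.30% of the 27025 symbols. It was in 3 of 16 S phase genes (Mcm5, Mcm6 and Uhrf1), in 1 of 17 G2/M genes (Cdk1) and in no granule or monocyte gene. Each run is cut at the first exon that GENCODE M21 annotates in the window, is written 5′ to 3′ on the gene's strand, and has the match in capitals.
Elane, chr10:79886062-79886246, + strand: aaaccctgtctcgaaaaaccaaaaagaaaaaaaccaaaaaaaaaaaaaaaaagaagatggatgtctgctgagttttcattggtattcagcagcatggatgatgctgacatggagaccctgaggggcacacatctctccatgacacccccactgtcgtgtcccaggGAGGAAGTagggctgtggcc
Prtn3, chr10:79879417-79879613, + strand: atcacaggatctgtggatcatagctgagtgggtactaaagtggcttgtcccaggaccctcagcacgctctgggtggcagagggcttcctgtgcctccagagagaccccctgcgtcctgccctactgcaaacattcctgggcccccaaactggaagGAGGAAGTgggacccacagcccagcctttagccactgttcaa
Mpo, chr11:87793534-87793580, + strand: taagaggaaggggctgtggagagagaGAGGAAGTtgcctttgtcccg
Ly6c2, chr15:75111972-75112221, - strand: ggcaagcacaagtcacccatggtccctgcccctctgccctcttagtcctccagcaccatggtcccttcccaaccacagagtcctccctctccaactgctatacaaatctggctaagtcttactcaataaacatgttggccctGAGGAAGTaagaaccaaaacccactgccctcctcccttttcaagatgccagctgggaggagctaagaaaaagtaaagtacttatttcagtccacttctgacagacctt
The match begins 85 bases before the RefSeq start in Elane, 95 in Prtn3, 224 in Mpo and 108 in Ly6c2. Elane and Prtn3 are neighbours on chromosome 10, at 79886247 to 79888215 and 79874476 to 79883174, and the Prtn3 window lies inside the longest annotated extent of that gene. Mpo lies on chromosome 11 at 87793581 to 87804413. A match of letters describes the sequence and says nothing of binding.

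Among the monocyte genes, Ly6c2 spanned 74.2 to 15784 TPM with a median of 5399 (level 12.03 ± 1.32, SD, n = 66 cells). Its reads may be divided with the near-identical neighbour Ly6c1, so that its level is uncertain. F13a1, coagulation factor XIII A chain, a product of classical monocytes, spanned 2.45 to 2560 TPM with a median of 662.5. Ccr2, the chemokine receptor by which monocytes leave the marrow, spanned 1.15 to 1216 TPM with a median of 186. All 66 cells held F13a1, Ccr2, Lyz2, lysozyme (median 645.3 TPM), and Ms4a6c, a membrane protein of the myeloid line (median 473.4 TPM). Ly86, the partner of the toll-like molecule RP105, was in 64 cells (median 380 TPM) and Ctss, the lysosomal protease cathepsin S, in 60 (median 208 TPM).

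The monocyte genes detected in the fewest cells were S100a4, a calcium-binding protein (22 of 66 cells), Cx3cr1, the fractalkine receptor (36), and Lgals3, galectin 3 (46). Csf1r itself had a median of 45.1 TPM and reached 535 TPM, and 20 cells held 100 TPM or more.

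The transcription factors formed a graded series. Irf8 was in all 66 cells, from 9.36 to 1269 TPM with a median of 284 (level 7.86 ± 1.21, SD). Klf4 was listed at 0 to 212 TPM with a median of 32.3 (level 4.06 ± 2.57, SD). Zeb2, a zinc finger repressor of the monocyte and dendritic lines, had a median of 160 TPM. Myb and Myc, factors of dividing progenitors, had medians of 51.5 and 78.8 TPM. Spi1, which encodes PU.1, was in 51 cells with a median of 13.4 TPM, Cebpa in 40 with a median of 4.24 TPM and Cebpb in 55 with a median of 4.17 TPM. The granulocyte factors Gfi1 and Cebpe were in 7 and 3 cells.

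Receptors for growth factors other than Csf1r were also present. Csf3r, the receptor for granulocyte colony-stimulating factor, was in 50 cells (median 24.9 TPM, highest 731) and Csf2rb, the shared chain of the receptors for granulocyte-macrophage colony-stimulating factor and interleukins 3 and 5, in 60 (median 32.97 TPM). Ifngr1, a chain of the interferon gamma receptor, was the highest of these receptors, with a median of 203 TPM in 65 positive cells. Of the 22 phagocyte genes 18 reached 1 TPM in 50% of the cells or more. The signalling adaptors Tyrobp and Fcer1g had medians of 1394 and 880.5 TPM, and the NADPH oxidase subunits Cyba and Ncf4 medians of 358 and 268 TPM. Cd14, the co-receptor for lipopolysaccharide, was in only 21 cells.

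Markers of other cell types were mostly low. Of 16 neutrophil genes 5 were listed at 0 in all 66 cells, among them S100a9, Ngp and Mmp9, and 3 were in 50% of the cells or more (Csf3r, Ly6g and Cxcr2). Camp and Ltf, of the later secondary granules, were each in 1 cell, and S100a8 was in 14. Ly6g had a median of 17.98 TPM in 60 positive cells, and Cxcr2 one of 3.69 TPM in 48. The complement genes C1qa, C1qb and C1qc, which mark macrophages, were at 0 in all cells, as were Cd7 and Dntt of the lymphoid and plasmacytoid lines. Mcpt8, a basophil protease, was in 12 cells and reached 1560 TPM in 1 of them, while Prss34, Epx, Prg2 and Fcer1a were at 0 in all 66 and Cpa3 was in 1. Ighm, the immunoglobulin mu chain, was in all 66 cells at a median of 579 TPM; it was also in all 51 GMP (median 615 TPM). The early lymphoid genes Il7r and Dntt reached 1 TPM in none of the 66.

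The MHC class II list followed the libraries that stood apart. Its score, the mean log2(TPM + 1) of its 7 genes in a cell, lay between 8.66 and 9.54 in the 6 and between 1.35 and 4.70 in the 60. Summed over the list, the 6 held 11311 to 26431 TPM and the 60 held 17.5 to 1126 TPM. The conventional dendritic cell list of 11 genes had scores of 1.55 to 4.01 in the 6 and of 0 to 2.73 in the 60, with Itgax, which encodes CD11c, at no more than 3.65 TPM in any cell. Elane was between 1366 and 3486 TPM in the same 6 libraries, within the range of the 60.

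Globin transcripts were widespread but low. The 4 globin genes summed to 1 TPM or more in 42 of 66 cells (63.6%, exact Clopper-Pearson 95% interval 50.9% to 75.1%, which covers the counting of cells only), with a median sum of 1.94 TPM and a highest of 417.8 TPM. The share was 60% in the 60 cells and 6 of 6 in the libraries that stood apart, where the median sum was 78.5 TPM. Hba-a2 was in 29 cells, with a highest value of 230 TPM, and its reads may be divided with the near-identical Hba-a1. The erythroid regulators Klf1 and Gata1, the erythropoietin receptor Epor and the carbonic anhydrase Car1 were listed at 0 in all 66 cells.

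The same globin sum reached 1 TPM in 31.4% of GMP, 50% of blood pre-DC, 20.8% of CLP, 8.62% of CDP and 5.88% of SiglecH-Ly6C+ pre-DC, and in none of 70 SiglecH+Ly6C- pre-DC or 27 plasmacytoid dendritic cells (upper bounds of the exact intervals 5.13% and 12.8%). Median genes per cell in those gates were 5792, 3648.5, 3280, 5208, 4221.5, 4982.5 and 4398. The share in cMoP was thus the highest of the 12 gates, at the highest number of genes per cell, and its interval overlapped that of blood pre-DC (24.7% to 75.3%). The part of free RNA or of depth in these shares was not tested.

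Nearly every cMoP cell carried a cell cycle programme. Of 20 S phase genes a median of 17 were at 10 TPM or more per cell (range 7 to 20), and of 19 G2/M genes a median of 10 (range 2 to 19). At least 50% of one list or the other was reached by 64 of 66 cells. Rrm2, a subunit of ribonucleotide reductase, spanned 0 to 1839 TPM with a median of 423.95. Top2a, the topoisomerase that untangles replicated DNA, spanned 2.28 to 5100 TPM with a median of 364. Both were detected in 64 cells or more.

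The same counts were 17 S phase and 13 G2/M genes in GMP, 6 and 4 in the pre-DC and 8 and 1.5 in CDP (medians per cell). The 4 gates differed in genes per cell, as given above, and these counts were not adjusted for it.

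Over cMoP cells the 2 parts of the cycle did not go together. The S phase score, the mean log2(TPM + 1) of its genes, had a Spearman correlation of -0.13 with the G2/M score over 66 cells. It was -0.16 over the 60, -0.27 over the 56 cells at or under 20% mitochondrial TPM and -0.37 once genes per cell were held fixed. Hells, a helicase of replicating chromatin, ran against Top2a at -0.37, while Top2a and Mki67, the proliferation antigen Ki-67, went together at 0.62. The genes that followed the G2/M score most closely were Nusap1, a member of the list, and Foxm1, a known activator of G2/M genes, both at 0.73. Those that ran against it included Hells (-0.42), Uhrf1 (-0.39) and Myc (-0.35). All these correlations describe cells that share 1 run and differ in genes per cell, which had a correlation of 0.51 with the G2/M score.

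Granule genes varied together. Of the genes ranked, Elane had its highest correlations with Gstm1, a glutathione transferase (0.71), Nkg7 (0.66), Ms4a3 (0.65) and Mpo (0.64). Over the 56 cells at or under 20% mitochondrial TPM these values were 0.70, 0.61, 0.68 and 0.53. Those with Prtn3 and Ctsg fell from 0.53 and 0.51 over 66 cells to 0.39 and 0.42. Among the monocyte genes the values differed. They were above 0 for Ly6c2 (0.56) and Lyz2 (0.31), near 0 for Csf1r (-0.00), Irf8 (0.02) and F13a1 (0.04), and below 0 for Klf4 (-0.30) and Ccr2 (-0.20). Over the 56 cells those of Klf4 and Ccr2 were -0.41 and -0.40, and those of Ly6c2 and Lyz2 were 0.43 and 0.17.

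Since Elane, Mpo and Irf8 were each detected in all 66 cells, every cell with Csf1r or Klf4 also held granule transcripts, and these shared detections follow from that alone. At 100 TPM or more Fcnb was found in 14 cells, Klf4 in 9 and both in 3. The granule score had a correlation of -0.00 with the monocyte score over 66 cells and of 0.03 over the 60. Over the 56 cells at or under 20% mitochondrial TPM it was -0.36. The 10 cells left out were low in both, since their median granule score was 6.19 against 9.06 and their median monocyte score 4.91 against 6.42. Granule and S phase scores correlated at 0.44 over 66 cells and at 0.20 over the 56.

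**Figure D3:**
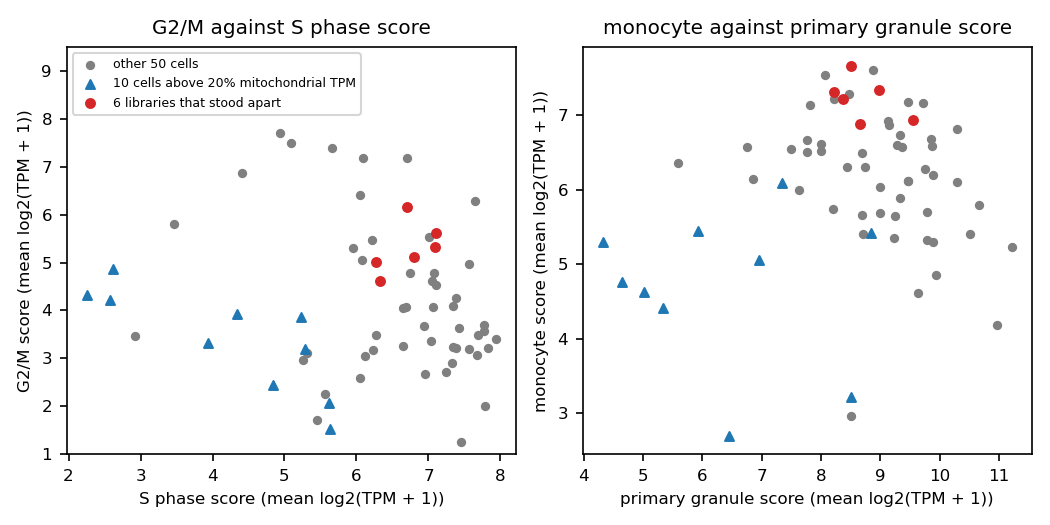
Scores of single cMoP cells, each the mean log2(TPM + 1) of a list: G2/M against S phase (left) and monocyte against primary granule (right). The 10 cells above 20% mitochondrial TPM (triangles) lie toward low granule and S phase scores, the 6 libraries that stood apart are red, and the remaining 50 cells are grey.

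The genes with the lowest correlations with Elane were Ahnak, a large scaffold protein (-0.56), and the transcription factor Pax6 (-0.55) and Prtg, protogenin (-0.51), both known from the nervous system. Pax6 had a level of 3.89 in cMoP, 0.00 in GMP, CLP and pre-pro-B cells, 0.26 in lymphoid-primed multipotent progenitors and 4.46 to 6.93 in the other 7 gates. Levels of this kind went with library runs, and their part in the correlations was not tested. The mitochondrial share had a correlation of -0.42 with Elane.

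Among well-expressed genes the largest spreads, in order, belonged to Plp2, a proteolipid (SD 3.74), Dynlt1a, a dynein light chain (3.67), Snora70 (3.66), Pbk (3.64) and Lsm7 (3.62). Over the 60 cells the SD of Dynlt1a was 3.29. Nkg7 (3.60) stood at rank 8 and Ccnb1 (3.53) at rank 14, with genes of no list between them. Ccnb1, cyclin B1, was listed from 0 to 3484 TPM with a median of 53.3. By contrast Mpo, Prtn3, Irf8 and Ly6c2 had SDs of 1.07 to 1.32, and that of Ly6c2 was 0.69 without the 10 cells above 20% mitochondrial TPM.

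Against GMP, the gate with the nearest granule programme, cMoP held about the same Mpo and less of the serine proteases. Mpo spanned 241.8 to 29178 TPM in GMP with a median of 14138, and the difference was -0.24. Elane was lower in cMoP by 1.33 (GMP 376 to 33098 TPM, median 8498), Prtn3 by 1.32 and Ctsg by 1.82 on the log2 scale. The ranges of both gates overlapped for each of these genes, and the differences of Prtn3 and Ctsg were larger than the SD over cMoP cells while those of Mpo and Elane were smaller. Of the 12 granule genes 10 were lower in cMoP, with a median difference of -0.95 against -0.00 over all 11004 genes compared. Past a 4-fold difference were Fcnb, higher (6.69% of all genes were), and Nkg7, lower (7.89% were). Without the 6 libraries the list median was also -0.95, and without the 10 cells above 20% mitochondrial TPM it was -0.63.

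Of the 2 granule genes higher in cMoP than in GMP, only Fcnb was past 4-fold. It was at 1 TPM or more in 7 of 51 GMP (highest 191 TPM) and in 34 of 66 cMoP (highest 970.8 TPM), a difference of 2.29. In the 10 remaining gates its level was at most 0.15. Among monocyte genes Ccr2 (2.47) and Klf4 (2.26) were past 4-fold higher in cMoP, and so was Fn1, fibronectin (2.29), a count of 3 of 16 where 6.69% of all genes were. F13a1 was higher by 1.67, with medians of 662.5 TPM in cMoP and 255 TPM in GMP. Irf8 differed by 0.12 and Csf1r by 0.49, and the median of the monocyte list was 0.18. Klf4 was in 24 of 51 GMP (highest 77.9 TPM) and in 50 of 66 cMoP, and its ranges overlapped.

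Of 18 transcription factors compared with GMP 2 were past 4-fold higher (Zeb2 and Klf4) and 3 lower, beside 6.69% and 7.89% of all genes. Their median difference was -0.64, and that of all 22 listed was -0.22. Spi1 was lower in cMoP by 4.28, with a median of 314.97 TPM in GMP and 13.4 TPM in cMoP. Cebpd was lower by 4.51 and Cebpb by 2.87, and Zeb2 was higher by 2.47. Of the 3 lower factors, Spi1 had levels of 5.05 in CLP and 2.31 in pre-pro-B cells, which share the GMP library run, and of 0.21 to 4.0 in the 8 other gates. Cebpd stood at 1.45 and 1.28 in CLP and pre-pro-B cells and at 0.10 to 0.45 in those 8 gates. Ly6d, a marker of lymphoid progenitors, was in 51 of 51 GMP at 3.49 TPM or more and in 1 of 66 cMoP. Immediate-early genes were lower in cMoP, with a median of -0.82 over all 14 listed and of -1.28 over the 12 compared. Past 4-fold lower were Junb, Jund, Ier2 and Ier3, 4 of the 12, where 7.89% of all genes were.

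Of the largest differences from GMP, those of Calb1, Taf10, Tgfb1 and Glrx5 went with library runs. Pfas, higher in cMoP by 5.96, had its highest level in cMoP, 2.09 above the highest other gate. The rest are not set out by gate here. Calb1, the calcium buffer calbindin, spanned 178 to 2562 TPM in cMoP and was below 1 TPM in every GMP cell. Its level was 0.00 to 0.01 in GMP, CLP, pre-pro-B cells and lymphoid-primed multipotent progenitors and 7.05 to 9.21 in the 7 other gates. Lymphoid-primed multipotent progenitors did not share the GMP run. Taf10, a subunit of general transcription factor TFIID, was lower in cMoP by 6.92. It stood at 8.11 in GMP, 5.74 in CLP and 5.94 in pre-pro-B cells, and at 0.00 to 1.85 in the 8 gates of other runs. Tgfb1, transforming growth factor beta 1, and Glrx5, a mitochondrial glutaredoxin, had the same order of levels.

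S phase genes had a median difference of 0.51 from GMP and G2/M genes one of 0.02. Of the S phase list 13 were higher and 7 lower, and Uhrf1, the reader of hemimethylated DNA, was past 4-fold higher (2.66), 1 of 20 where 6.69% of all genes were. The S phase median was 0.43 over the 60 cells and turned to -0.39 when only cells positive for Y-linked genes and negative for Xist entered, 56 cMoP and 13 GMP. The gates differed in sex-linked transcripts: 29 of 51 GMP held Xist and no Y-linked transcript, against 0 of the cMoP, pre-DC and CDP cells. Among the 56 and 13 cells 11.9% of genes were past 4-fold lower in cMoP, against 7.89% over all cells. In the G2/M list Top2a was past 4-fold higher (2.60), and Cdc20 and Ube2c, of the anaphase-promoting system, were past 4-fold lower (-2.62 and -2.37). These were 1 and 2 of 19, beside 6.69% and 7.89% of all genes. Of 9 G1 genes 2 were past 4-fold higher, Cdk6, the G1 kinase (by 3.36), and Cdkn1b. Past 4-fold lower were also 2, Ccnd3, cyclin D3 (by 3.58), and Cdkn1a, beside the same 6.69% and 7.89% of all genes. MHC class II genes had a median of 0.68 over 66 cells and of 0.26 over the 60, and of 2.68 over the 66 by the log2 of the mean TPM.

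The SiglecH-Ly6C+ pre-DC were also sorted for Ly6C, and they differed from cMoP in granule, monocyte and S phase genes. Mpo reached no more than 0.39 TPM in the 68 pre-DC, and Elane, Ctsg and Nkg7 were listed at 0 in all of them. Of the 12 granule genes 11 were past 4-fold higher in cMoP, where 16.5% of 10549 genes were, and their median difference was 6.52 against 0.80 over all genes (3.86 against 0.30 with a pseudocount of 10). The exception was Plac8, at a level of 10.08 in the pre-DC and 11.25 in cMoP. Hp, haptoglobin, Slpi, a protease inhibitor, and Alas1, the first enzyme of haem synthesis, were higher in cMoP by 7.30, 7.73 and 6.78.

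Of the 16 monocyte genes 11 were lower in cMoP than in the pre-DC and 5 were higher. Past 4-fold higher in cMoP were F13a1 (4.75), Irf8 (2.76), Ly6c2 (2.44) and Csf1r (2.11), 4 of 16 where 16.5% of all genes were. Ly6c2 and Csf1r encode proteins used for the cMoP sort. Without them 2 of 14 were past 4-fold higher, a share near the 16.5% of all genes. Past 4-fold lower, where 1.2% of all genes were, stood 7 of 16: S100a4 (-5.88), Lgals3 (-4.57), Ctss (-3.43), Klf4 (-2.30), Cx3cr1 (-2.29), Mpeg1 (-2.24) and Ccr2 (-2.21). Klf4 spanned 0 to 1031.2 TPM in the pre-DC with a median of 153, against 32.3 in cMoP. The median of the list was -1.47 (-1.95 without the 2 sort genes), and -1.48 over the 60 cells. Of the named genes lower in cMoP the largest difference was that of Cd209a, a C-type lectin of dendritic cells, which was in 67 of 68 pre-DC (median 2302 TPM) and in 3 of 66 cMoP. Cd7 was at 0 in all cMoP and had a median of 1051.3 TPM in the pre-DC. MHC class II genes had a median of -1.40, and -1.88 over the 60.

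All 20 S phase genes were higher in cMoP than in the pre-DC, 19 of them past 4-fold, where 16.5% of all genes were. Their median was 4.0, against 0.80 over all genes. By the log2 of the mean TPM this median was 1.35, against 0.09 over all genes. Rrm2 had the largest difference (5.15), with medians of 423.95 TPM in cMoP and 1.74 TPM in the pre-DC. For G2/M genes the median was 0.96, near the 0.80 of all genes, and it was -0.63 by the log2 of the mean TPM. The pre-DC range of Top2a, 0 to 3253 TPM, overlapped that of cMoP.

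**Figure D4:**
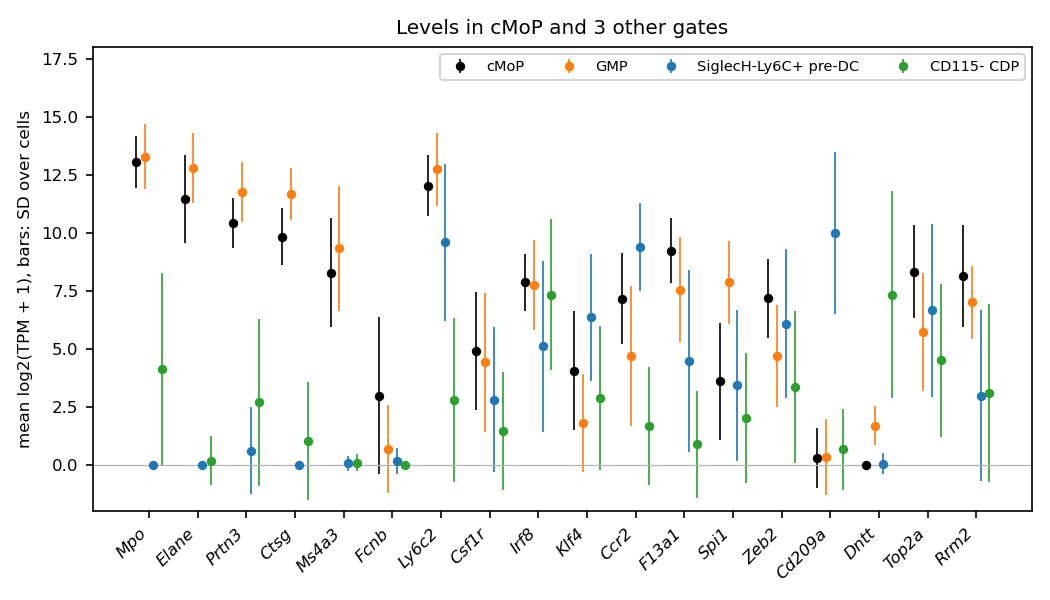
Mean log2(TPM + 1) of 18 genes in cMoP, GMP, SiglecH-Ly6C+ pre-DC and CD115- CDP, with bars of 1 SD over the cells of the gate. Mpo, Elane, Prtn3, Ctsg and Ms4a3 lie at 8.29 or more in cMoP and 9.34 or more in GMP and at 4.12 or less in the other 2 gates, Cd209a is high in the pre-DC, and Dntt is high in CDP.

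CD115- CDP, a Flt3+ progenitor of dendritic cells, had low levels of most granule genes but not of Plac8 (11.26), Srgn (9.21) or Serpinb1a (6.14). Mpo was in 37 of 58 CDP with a median of 2.96 TPM and a highest of 3978.2 TPM, and the difference was 8.91. Elane was in 3 of 58 CDP and higher in cMoP by 11.28. Past 4-fold higher in cMoP were 8 of 12 granule genes, where 10.2% of 10828 genes were, with a median of 5.09 against 0.53 over all genes (2.96 against 0.18 with a pseudocount of 10). Serpinb1a, Srgn, Nkg7 and Plac8 were not, at 0.48, -0.48, 1.89 and -0.01.

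Of the monocyte genes 8 of 16 were past 4-fold higher than in CDP, where 10.2% of all genes were, with a median of 2.13 (1.96 over the 60 cells, and 0.92 by the log2 of the mean TPM). They include Ly6c2 (9.23) and Csf1r, which encode sort proteins, CD115 being sorted as absent in CDP, and without these 6 of 14 passed with a median of 1.21. The others were led by F13a1 (8.33), Lyz2 (6.73) and Ccr2 (5.49). The level of Irf8 was higher in cMoP by 0.52, while its median was higher in CDP, 364 TPM against 284 TPM in cMoP. Receptors other than the sort markers followed: Ifngr1 (4.16), Csf2rb (2.89) and Csf3r (2.82) were past 4-fold higher. Of 19 phagocyte genes compared 10 were past 4-fold higher, with Fcgr3, an Fc receptor, listed at 0 in all 58 CDP. In cMoP Fcgr3 was in all 66 cells with a median of 267 TPM.

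Lower than in CDP, where 1.15% of all genes passed 4-fold, were lymphoid and immediate-early genes. Of 10 early lymphoid genes compared 7 passed, among them Satb1 (-5.01), while Cd79b, a chain of the B cell receptor, was past 4-fold higher in cMoP (2.13). Dntt, the polymerase of antigen receptor junctions, was at 0 in all cMoP against a CDP level of 7.33. Of 11 plasmacytoid genes compared 6 passed, among them Runx2 (-4.58), Ly6d (-4.79) and Tcf4 (-3.14). Of 12 immediate-early genes compared 8 passed, with Egr1 at -6.70 and Btg2 at -5.16. Egr1 was in 54 of 58 CDP (median 706 TPM) and in 18 of 66 cMoP.

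S phase and G2/M genes were higher in cMoP than in CDP throughout, 20 of 20 and 19 of 19. Of each list 14 passed 4-fold, where 10.2% of all genes did. The medians were 2.47 and 2.48, against 0.53 over all genes. By the log2 of the mean TPM they were 0.70 and 1.48, against -0.04 over all genes. Cdk1, the mitotic kinase (3.92), Top2a (3.82) and Birc5, survivin (3.79), led the G2/M genes, and Rrm2 (5.03) and Tk1, thymidine kinase (4.59), the S phase genes. MHC class II genes had a median of 0.99 over 66 cells and of 0.16 over the 60.

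**Figure D5:**
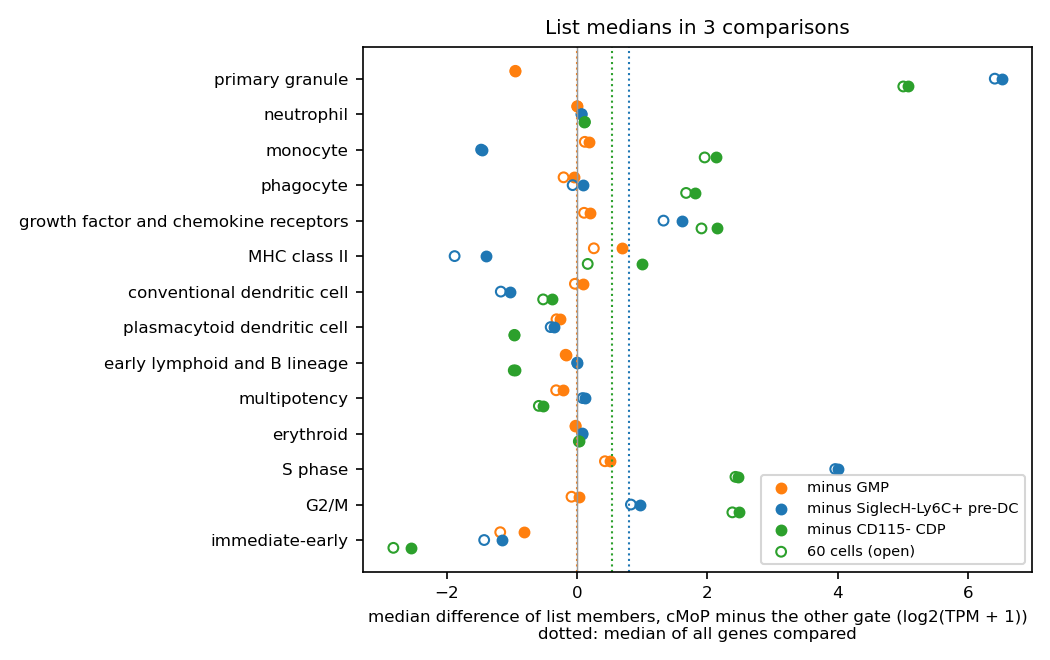
Median difference of the members of 14 gene lists, cMoP minus GMP, SiglecH-Ly6C+ pre-DC or CD115- CDP, on the log2(TPM + 1) scale. Filled points use 66 cMoP cells, open points the 60 without the libraries that stood apart, and dotted lines mark the median of all genes compared; the granule list lies at -0.95, 6.52 and 5.09.

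Across 12660 genes the mean profile of cMoP had its highest Spearman correlations with CDP (0.822) and SiglecH-Ly6C+ pre-DC (0.809). Next came SiglecH-Ly6C- pre-DC (0.791), SiglecH+Ly6C- pre-DC (0.787), lymphoid-primed multipotent progenitors (0.766) and SiglecH+Ly6C+ pre-DC (0.766). These too were ahead of GMP (0.755) and CLP (0.686). The order does not follow the granule genes, and GMP and CLP share a library run.

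By 1 or more on the log2 scale, cMoP led all 11 other gates in 307 of 10182 genes (248 over the 60 cells). After Rab31, a trafficking GTPase (2.43), came Rrp1b (2.40), Nrg1, neuregulin 1 (2.39), and Fcnb (2.29). Nrg1 was in 50 of 66 cMoP with a median of 28.5 TPM, in 19 of 51 GMP, and at a level of 0.09 or less in the other 10 gates. Uhrf1 (2.23) and Atad2 (1.91), a chromatin ATPase of dividing cells, were in the same group, as was Pfas, an enzyme of purine synthesis (2.09). By the log2 of mean TPM the lead of Rab31 turned to -0.33 and that of Atad2 to -0.24.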

How the data were processed

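Messenger RNA was measured in single sorted cells, each its own library. The authors deposited TPM per gene symbol and cell (43280 symbols), made with RSEM 1.2.19 on GRCm38 per the submitters' processing notes. Which aligner and annotation served was not given in the sources used here. Read depth cannot be had from TPM, and with it the counting error of a level is unknown. TPM totals of cMoP cells lay between 998663 and 999926.

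A level was the mean over cells of log2 values after adding a pseudocount of 1 to the TPM. Detection was 1 TPM. Genes detected in at least 20% of either gate's cells entered the comparisons, and a difference of 2 or more (4-fold) was counted. Unless stated otherwise, a list median was taken over all members with a row, also those short of this limit. The median of all genes covers only the genes that met it. Intervals of shares are exact Clopper-Pearson 95% intervals. Correlations over cells are descriptions and carry no p-value, and no test between gates was made, since a gate is 1 sample.

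Genes were named from 23 lists and, beside them, by size: the 20 highest levels, the 10 largest differences each way against GMP and the pre-DC and the 5 against CDP, the 20 largest leads over all gates, the 20 largest SDs and the 10 strongest correlations with Elane, Ly86 and the G2/M score. Predicted genes, mitochondrial, ribosomal protein, Xist, Y-linked and antigen receptor genes were left out of the ranked names, and sort markers out of the ranked gate differences. The cells, lists and rules were chosen with earlier results of these data known. Chosen after the values were seen were the 6 libraries that stood apart, the limit of 20% mitochondrial TPM, the promoters and motif shown, the lists treated as main answers and the genes Pax6, Spi1 and Cebpd set out by gate. Adgre1 and Jchain were listed but had no row.

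Doublets were not called; as a stand-in, the top 5% of each gate by genes per cell were left out. Coordinates came from GENCODE M21 (GRCm38), which held 39469 of the symbols (91.2%), and upstream sequences from RefSeq on GRCm38.p6. The alternatives changed the pseudocount (0.1 or 10), took log2 after averaging TPM, applied size factors from 762 genes by median of ratios, rescaled without mitochondrial genes, dropped the filter, asked for 2000 genes per cell, or chose cells by their sex-linked transcripts. The software was Python 3.11.15 with matplotlib 3.10.9, scipy 1.17.1, pandas 2.3.3 and numpy 2.4.6. The gate difference was checked on the real cMoP cells divided at random (seed 1), with chosen genes raised by a known factor on 1 side. The other steps were not checked in this way.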

Additional observations from a re-analysis of the deposited data

How the results depend on the processing

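No paired analysis was possible because the number of a cell only names it and pairs no cells across gates. The share of genes past 4-fold, in percent of the genes compared in the main setting, depended on the scale. With a pseudocount of 0.1 it was 18.98% higher and 14.5% lower against GMP, 36.2% and 1.85% against the pre-DC, and 23.98% and 2.23% against CDP, and cMoP led in 7.79% of genes. With a pseudocount of 10 these were 1.62% and 1.77%, 2.59% and 0.44%, 1.38% and 0.38%, and 0.37%. By the log2 of the mean TPM they were 12.8% and 5.15%, 8.43% and 4.09%, 4.77% and 4.83%, and 0.51%. Without the cells above 20% mitochondrial TPM cMoP led in 4.97% of genes. With only cells positive for Y-linked genes and negative for Xist 11.9% of genes were past 4-fold lower than in GMP.

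The granule median was 9.35 against the pre-DC and 7.12 against CDP at a pseudocount of 0.1, and 3.86 and 2.96 at 10, where the S phase median against the pre-DC was 2.28. By the log2 of the mean TPM the medians were 1.35 for S phase and -0.63 for G2/M against the pre-DC, 0.92 for monocyte and 0.70 for S phase genes against CDP, and 2.68 for MHC class II against GMP. This scale moved the median of all genes by -0.71 against the pre-DC, -0.58 against CDP and 0.27 against GMP, and a pseudocount of 0.1 moved it by 0.63, 0.42 and 0.11. The S phase median against GMP was -0.39 with only those cells that were positive for Y-linked genes and negative for Xist. The G1 list against the pre-DC turned to -0.00 (-0.00119) without the 6 libraries that stood apart. The cause of these shifts was not tested.

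Leads of cMoP turned by the log2 of the mean TPM for Rab31 (-0.33), Bre (-0.10), Fstl1 (-0.69), Atad2 (-0.24), Soat1 (-1.37), Srek1 (-0.18) and Nup188 (-0.28), and that of Hcfc1 (-1.69) among cells positive for Y-linked genes and negative for Xist. Over cells, the granule and monocyte correlation was -0.36, the granule and S phase correlation 0.20 and the SD of Ly6c2 0.69 without cells above 20% mitochondrial TPM, and the S phase and G2/M correlation was -0.37 given genes per cell. No cell of these gates was under 2000 genes, so that filter removed none, and no cMoP cell was Xist-positive and Y-negative, so that subset gave no value.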

Other observations

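Kinases and cyclins of the G1 phase were uneven in cMoP. Cdk4 had a median of 896.4 TPM (64 of 66 cells) and Cdk6 one of 359 TPM (65 cells), while Ccnd1, cyclin D1, was in 17 cells and Cdkn1a, the inhibitor p21, in 18. Ccnd2 and Ccnd3 had medians of 33.3 and 23.9 TPM. Cdk6 was higher than in GMP by 3.36 and lower than in CDP by 0.57 on the log2 scale, and Cdk4 was higher than in the pre-DC by 5.04. Of the interferon response genes, Ifitm3, an antiviral membrane protein, was in 61 cells with a median of 260.98 TPM. Isg15 was in 6 of 66 cells and Irf7 in 9. Ifitm3 was lower than in the pre-DC by 3.37 and higher than in CDP by 2.74.

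Stem and progenitor genes were limited to a few. Of the 15 multipotency genes 3 were in 50% of the cells or more, among them Cd34, a sialomucin of progenitors (median 69.3 TPM, 61 cells), and Cd48, a signalling receptor (median 341 TPM, 63 cells), whereas Meis1, a homeobox factor of stem cells, was in 13 cells and Sox4 in 19.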
